A study of Mus musculus with 2 samples.

Results

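Kinesins are motor proteins that walk along microtubules. The mouse kinesin genes were taken as the gene symbols that start with *Kif* or *Kifc* and go on with a number and at most 1 letter, which held for 41 of the 23183 genes measured. Of these, 12 are mitotic kinesins, 15 are transport kinesins and 14 are other kinesins, which include depolymerases, ciliary members and atypical members. The groups were set by known function, though with earlier results of these data known. *Cenpe*, a kinesin that holds chromosomes on the spindle, has a symbol outside this rule and is given with the partner genes.

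A kinesin turns the energy of ATP into steps along a microtubule, most often towards its plus end, and a few members walk to the minus end or take microtubules apart. Mitotic kinesins build the bipolar spindle, move chromosomes and drive the last cut between daughter cells, and their transcripts are known to rise in G2 and M phase of dividing cells. Transport kinesins carry vesicles, mitochondria and ciliary proteins, in dividing and resting cells alike.

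The study asked which genes respond when *Runx3* comes back in lung cancer cells driven by *K-Ras*, and sequenced mRNA of KPR- and KPR_restored cells as 1 library per condition. KPR- is an immortalized cell line from lung cancers of KPRL/F-TAM(-) mice, which carried a Tomato reporter and FlpERT2 together with *Runx3* flox/FSF, *K-Ras* LSL-G12D/+ and *p53* flox/flox. Ad-Cre, given through the nose and driving Cre from a viral promoter, switched on the *K-Ras* allele and deleted *p53* and the floxed *Runx3* allele, so the cells of both conditions share these changes. In KPR- cells, labelled RUNX3 -/-, a Frt-Stop-Frt cassette keeps the other *Runx3* allele off, and 4-OHT, an active form of tamoxifen, lets FlpERT2 remove it to give KPR_restored cells, labelled RUNX3 -/+. The sample records give 0 h for KPR- and 16 h for KPR_restored and list 1 μM 4-OHT for both. Restoration cannot be told apart from 4-OHT itself or from the hours in culture. Values are FPKM, which relate the fragments of a gene to the length of its transcript and to the depth of the library. With no replicates, no difference could be set against the spread between cultures, and no test of the conditions was run.

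The steps between low FPKM values gave estimated depths of 21.8 M fragments in KPR- and 22.4 M fragments in KPR_restored. *Runx3* had 0.348 FPKM in KPR- and 0.349 FPKM in KPR_restored, so its level does not check the labels, and each direction below is that of the library labelled KPR_restored against the library labelled KPR-. *Trp53*, the deleted p53 gene, had 2.12 and 2.17 FPKM, and a value per gene does not tell deleted exons from the rest. The 5 epithelial markers summed to 4881 and 4625 FPKM, and the 5 mesenchymal markers to 2059 and 1727 FPKM, most of it *Vim*. Of the 5 lung lineage markers, *Sftpc*, *Sftpb* and *Scgb1a1* were at 0 in both libraries, *Nkx2-1* was at 0.0444 and 0.0216 FPKM, and the summed level was 2.82 and 0.678 FPKM, most of it *Foxj1*. The 3 endothelial markers summed to 1.16 and 2.22 FPKM, and the 4 blood markers to 3.08 and 6.79 FPKM, with *Cd3e* and *Adgre1* at 0 in both. The part of these markers in the kinesin differences was not tested.

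The 12 mitotic kinesins were lower as a group in the library labelled KPR_restored, and *Kif15*, *Kif14* and *Kif11* fell most. Their summed level was 433 FPKM in KPR- and 378 FPKM in KPR_restored, whereas that of all 15 transport kinesins was 177 and 171 FPKM. A gene was called lower or higher where log2(FPKM + 0.005) differed by 0.5 or more and its mean over both libraries was at least 1 FPKM. By this rule 3 of the 12 mitotic kinesins fell and 0 rose, where 9.29% of the 11231 genes with a mean of at least 1 FPKM were called lower and 12.1% higher. Of the 12 mitotic kinesins, 10 had a difference below 0, against 49% of all these genes. Their median log2 difference was -0.20, with quartiles of -0.49 and -0.093, whereas the median of all these genes was 0.0086, with quartiles of -0.23 and 0.27. All 12 mitotic kinesins had a mean of at least 1 FPKM, as did 11 of the 15 transport kinesins and 6 of the 14 others.

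**Figure D1:**
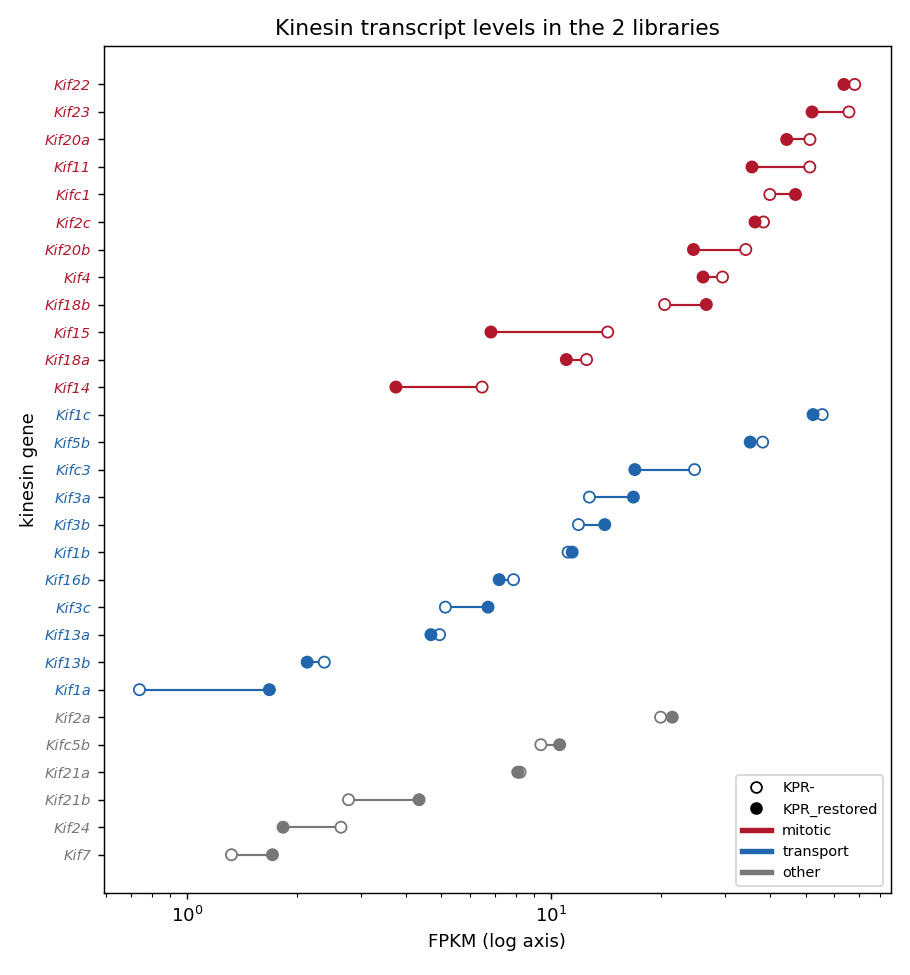
FPKM (log axis) of the 29 kinesins with a mean of at least 1 FPKM, with an open point for the KPR- library and a filled point for the KPR_restored library, 1 library each. Filled points lie left of open points for 10 of the 12 mitotic kinesins, with the widest gap for *Kif15* (14.3 and 6.84 FPKM), and on both sides for the transport kinesins.

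Among the motors that set up the bipolar spindle, *Kif11*, also called Eg5, slides antiparallel microtubules and so pushes the spindle poles apart. It had 51.4 FPKM in KPR- and 35.6 FPKM in KPR_restored and fell by 0.53 on the log2 scale, with a 95% counting interval of -0.59 to -0.47. A copy, *Gm15697*, is 90.6% identical to its transcript over 1691 bases, so a share of its fragments may be uncertain. *Kif15*, a kinesin-12 that can keep the spindle bipolar when *Kif11* is blocked, had 14.3 and 6.84 FPKM and fell by 1.07 (interval -1.197 to -0.93), the largest fall among kinesins with a mean of at least 1 FPKM. Only 1.19% of genes with a mean of at least 1 FPKM had a lower difference than *Kif15*, and among the 29 kinesins it went from rank 14 by level to rank 21. On GRCm38, *Kif11* spans chr19:37376403-37421859, *Kif15* chr9:122951046-123018733 and *Kif14*, described next, chr1:136466343-136531511, all on the plus strand. The counting intervals come from estimated fragments, about 1450 and 712 for *Kif15*, and cover counting error only. *Kifc1*, a minus-end-directed kinesin-14 that gathers microtubules at the poles and clusters extra centrosomes, had 39.9 and 46.9 FPKM, a log2 difference of 0.23 (interval 0.15 to 0.32), under the threshold. The 3 pole motors therefore did not share a direction. The longest *Kifc1* transcript is 96.8% identical to *Kifc5b* over 2312 of its 2357 bases, so how fragments were split between these genes is uncertain. *Kifc5b* had 9.37 and 10.6 FPKM, a log2 difference of 0.17 with an interval that held 0 (-0.0041 to 0.35), and the difference of both genes was above 0.

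The motors of cytokinesis all had a lower value in the library labelled KPR_restored, and *Kif14* was the member past the threshold. *Kif14*, which holds citron kinase at the midbody, had 6.46 and 3.75 FPKM and fell by 0.79 (interval -0.92 to -0.65). *Kif20b*, a kinesin-6 of the midbody, had 34.3 and 24.6 FPKM, a log2 difference of -0.48 (interval -0.55 to -0.41), just inside the threshold. *Kif23*, the motor subunit of centralspindlin, had 65.8 and 52.1 FPKM, a log2 difference of -0.34 (interval -0.40 to -0.27). *Kif20a*, which carries the chromosomal passenger complex to the central spindle, had 51.4 and 44.4 FPKM, a log2 difference of -0.21 (interval -0.28 to -0.15). *Cdc23* shares 1271 exonic bases with *Kif20a* on the opposite strand and had 22.5 and 18.7 FPKM, so fragments of the 2 genes may have been mixed if strand was not used in counting. All 4 intervals lay below 0, as did 9 of the 12 for mitotic kinesins, against 33% of genes below 0 and 34.3% above 0. These shares are not at equal levels, and a higher level narrows the interval. The median of the mean FPKM was 33.4 for mitotic kinesins and 13.8 for all genes that passed the filter.

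The motors that act on chromosomes and spindle microtubule ends differed less, and none of these 5 members passed the threshold. *Kif4*, a chromokinesin that works with *Prc1* at the spindle midzone, had 29.6 and 26.2 FPKM, a log2 difference of -0.18 (interval -0.25 to -0.10). It shares 753 exonic bases with *Pdzd11* on the opposite strand, which had 41.8 and 53.6 FPKM, a difference in the other direction. *Kif22*, a chromokinesin that pushes chromosome arms away from the poles, had the highest level of all kinesins in both libraries, 68.3 and 63.7 FPKM, and a log2 difference of -0.099 (interval -0.18 to -0.022). *Kif18a*, a kinesin-8 that dampens chromosome movements at the metaphase plate, had 12.5 and 11.0 FPKM, a log2 difference of -0.18 (interval -0.32 to -0.042). *Kif2c*, a depolymerase that corrects faulty kinetochore attachments, had 38.3 and 36.3 FPKM and the 1 interval of the mitotic kinesins that held 0 (log2 difference -0.077, interval -0.16 to 0.0094). *Gm4961* is 91.7% identical to the opposite strand of the *Kif2c* transcript over 1443 bases, so a share of *Kif2c* fragments may be uncertain. *Kif18b*, a kinesin-8 of astral microtubule ends, had 20.5 and 26.7 FPKM, a log2 difference of 0.38 (interval 0.28 to 0.48), so *Kif18a* and *Kif18b* went opposite ways. *Kif18b* and *Kifc1* were the 2 mitotic kinesins with intervals above 0.

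**Figure D2:**
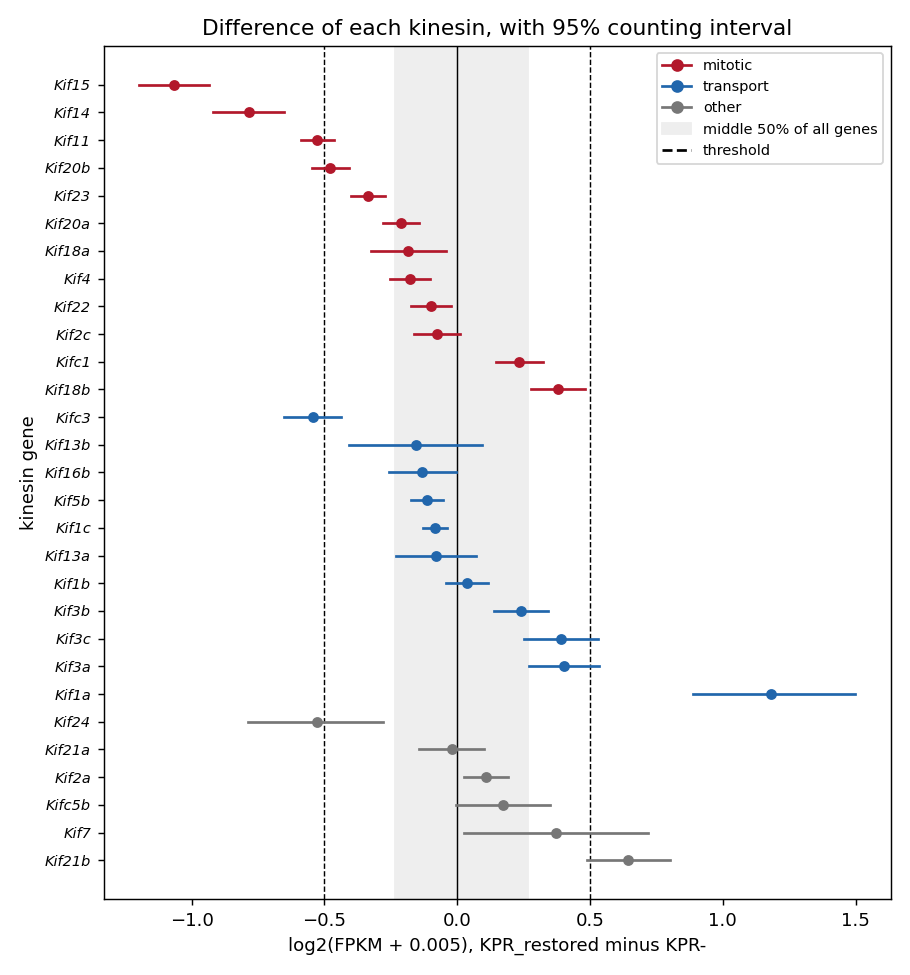
Log2 difference (KPR_restored minus KPR-) of the 29 kinesins, with bars for the 95% counting interval, dashed lines at the threshold of 0.5 and a grey band for the middle of all genes (-0.23 to 0.27). The mitotic kinesins *Kif15*, *Kif14* and *Kif11*, the transport kinesin *Kifc3* and, of the others, *Kif24* lie past the lower line. *Kif20b* lies just inside it. *Kif21b* (0.64) and *Kif1a* (1.18) lie past the upper line, *Kif1a* farthest to the right.

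The promoters of the mitotic kinesins were read because these genes share a known letter pattern. Genes of G2 and M phase often carry a CHR, the cell cycle genes homology region, near the start of transcription, bound in resting cells by the DREAM repressor and in G2 by MuvB with B-MYB and FOXM1. RefSeq start sites on GRCm38.p6 were given for 33 of the 41 kinesins, among them 11 mitotic, 10 transport and 12 other members. The letters TTTGAA or TTCGAA, on either strand (TTCAAA is TTTGAA on the other strand), stood between 250 bases before and 50 bases after the start in 10 of 11 mitotic kinesins, 0 of 10 transport kinesins and 4 of 12 others. They stood in 17.1% of all 17038 promoters and in 13% of the 8576 promoters of genes with a mean of at least 1 FPKM. In the window from 50 bases before to 50 after the start, chosen after the data were seen, they stood in 8 of 11 mitotic kinesins. There they stood in 0 of 10 transport kinesins, 3 of 12 others and 4.24% of all promoters. The 8 sites in that window are shown here as 30 bases each, 5′ to 3′ in the direction of the gene. They are shown because the letters stood in most mitotic kinesins with a given start and in no transport kinesin with one. Capitals mark the CHR letters, and in *Kif20b* the first of a pair of adjoining matches:
Kif11 chr19:37376351-37376380 (plus strand): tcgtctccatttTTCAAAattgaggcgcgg
Kif15 chr9:122951050-122951079 (plus strand): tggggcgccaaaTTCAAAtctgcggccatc
Kif20b chr19:34922353-34922382 (plus strand): gagccgccattgTTTGAAtttgaaaaccgg
Kif23 chr9:61946780-61946809 (minus strand): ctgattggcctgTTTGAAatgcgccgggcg
Kif4 chrX:100626072-100626101 (plus strand): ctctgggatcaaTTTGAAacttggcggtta
Kif22 chr7:127042420-127042449 (minus strand): gggccccggtaaTTCAAAagagagaagcgg
Kifc1 chr17:33890615-33890644 (minus strand): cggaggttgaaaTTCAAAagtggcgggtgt
Kif18b chr11:102925104-102925133 (minus strand): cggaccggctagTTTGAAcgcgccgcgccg

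**Figure D3:**
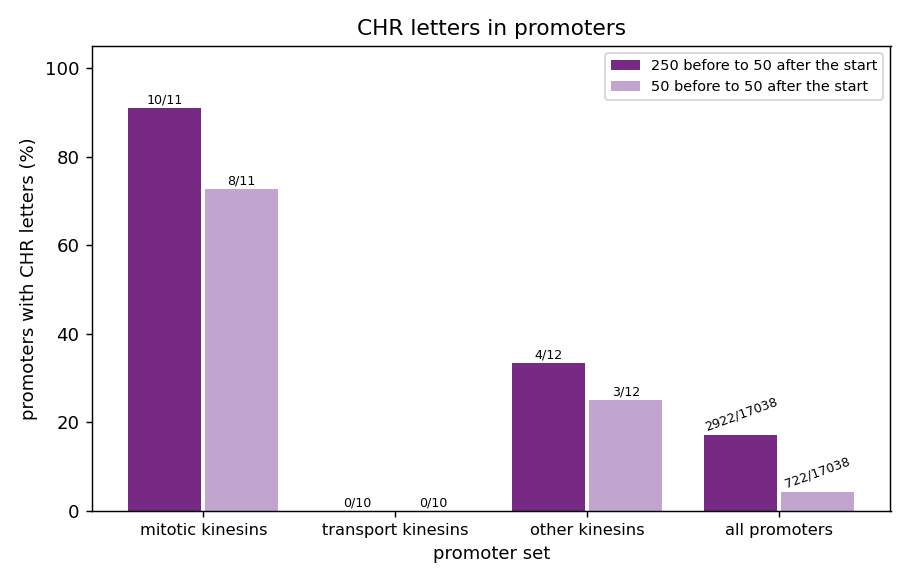
Share of promoters (%, y axis) that hold the CHR letters in 4 promoter sets, in the window from 250 bases before to 50 after the start (dark bars) and from 50 before to 50 after (light bars), with the counts above each bar. The dark bars stand at 90.9% for mitotic kinesins, 0% for transport kinesins, 33.3% for other kinesins and 17.1% for all promoters.

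The CHR letters were present in mitotic kinesins of both directions, since *Kif11*, *Kif15*, *Kif18b* and *Kifc1* all hold them within 20 bases of the start. *Kif18a* held no match in the window. The starts used for *Kif14*, *Kif2c* and *Kif4* lie 1505, 3867 and 328 bases inside the annotated gene, and that of the transport kinesin *Kif17* 11816 bases. With starts within 100 bases of the gene end, 7 of 8 mitotic kinesins held the letters, against 16.4% of all promoters. Of the transport kinesins 0 of 8 held them, and of the others 3 of 11. CCAAT on either strand stood in 7 of 11 mitotic kinesins, 3 of 10 transport kinesins and 38.4% of all promoters. The E2F letters TTCCCGC stood in 0 of 11 mitotic kinesins and 6.1% of all promoters. The RUNX letters TGTGGT or TGCGGT stood in *Kif11*, *Kif2c* and *Kif18b*, 3 of 11 mitotic kinesins, in 0 of 10 transport kinesins and in 21.1% of all promoters. The 250 bases before the start are shown for a mitotic kinesin that fell, for a mitotic kinesin with a difference above 0, and for *Kif18a*, whose window held no match. Capitals mark, from left to right and on either strand, a RUNX, a CCAAT and a CHR match in *Kif11*, and 2 RUNX and 2 CCAAT matches in *Kif18b*, whose CHR lies after the start:
Kif11 chr19:37376132-37376381 (plus strand): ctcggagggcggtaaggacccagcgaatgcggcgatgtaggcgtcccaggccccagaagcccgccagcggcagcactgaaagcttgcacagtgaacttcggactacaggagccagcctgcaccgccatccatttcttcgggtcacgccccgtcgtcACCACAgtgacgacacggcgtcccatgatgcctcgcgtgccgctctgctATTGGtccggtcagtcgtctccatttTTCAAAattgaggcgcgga
Kif18b chr11:102925125-102925374 (minus strand): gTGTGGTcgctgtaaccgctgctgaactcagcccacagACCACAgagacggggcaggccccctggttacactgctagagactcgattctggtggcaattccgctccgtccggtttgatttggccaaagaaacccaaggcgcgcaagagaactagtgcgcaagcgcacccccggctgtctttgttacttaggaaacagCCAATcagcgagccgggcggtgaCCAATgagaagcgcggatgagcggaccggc
Kif18a chr2:109280488-109280737 (plus strand): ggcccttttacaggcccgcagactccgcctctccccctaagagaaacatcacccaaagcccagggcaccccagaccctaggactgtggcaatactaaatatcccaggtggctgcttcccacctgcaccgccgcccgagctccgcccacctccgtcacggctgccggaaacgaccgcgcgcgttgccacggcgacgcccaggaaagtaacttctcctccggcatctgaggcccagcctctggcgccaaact
A match of letters is a description of the sequence and does not show that a factor was bound in these cells.

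Within the mitotic kinesins, members with longer transcripts tended to have lower differences. Across the 12 genes the Spearman correlation of the log2 difference with the longest transcript was -0.77 (Pearson -0.70 with log2 length), and with the span of the gene on the chromosome it was -0.55. *Kif14* has the longest transcript of the group, 8943 bases, and *Kif22* the shortest, 2115 bases. This is a correlation across genes of the same 2 libraries, and genes are not independent replicates. Over all 11172 genes with a mean of at least 1 FPKM and a length it was -0.21, and the median difference went from 0.087 in the shortest of 20 length bins to -0.22 in the longest. Over the 29 kinesins it was 0.083. With the trend of all genes with length subtracted, the median of the mitotic kinesins was -0.20 and that of the transport kinesins 0.081. *Kif15* was then at -0.997 and *Kif14* at -0.56, while *Kif11* was at -0.46, inside the threshold.

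**Figure D4:**
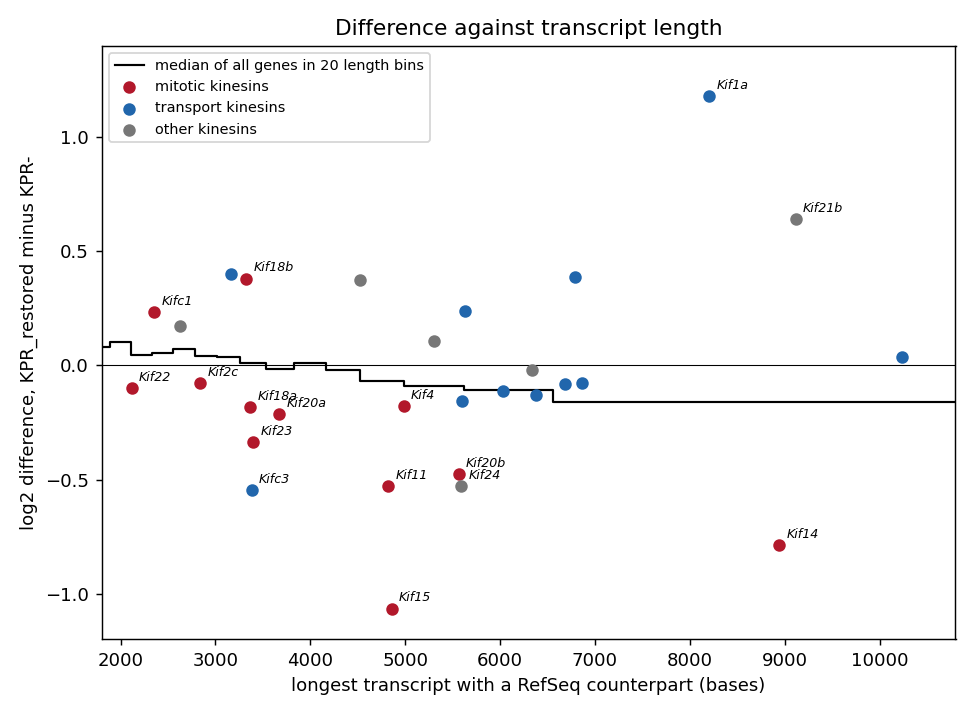
Log2 difference (KPR_restored minus KPR-) of the 29 kinesins against the longest transcript in bases, with the median of all genes in 20 length bins as a black line. Of the 12 mitotic kinesins 10 lie below the line, *Kif15* farthest, and *Kifc1* and *Kif18b* lie above it.

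The transport kinesins went in both directions, with 1 lower and 1 higher call among 11 members, close to the 9.29% and 12.1% of all genes. Their median log2 difference was -0.079, with quartiles of -0.12 and 0.31, and 6 were below 0. The higher call, *Kif1a*, passed the filter only through its KPR_restored value. *Kif5b*, the kinesin-1 heavy chain found in most tissues, had 38.1 and 35.2 FPKM, a log2 difference of -0.11 (interval -0.17 to -0.056). *Kif1c*, a kinesin-3 that carries dense core vesicles and integrins, was the most abundant transport kinesin with 55.6 and 52.5 FPKM, a log2 difference of -0.084 (interval -0.13 to -0.038). These 2 most abundant carriers differed by -7.60% and -5.63% between the libraries.

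The 3 *Kif3* motor subunits of kinesin-2, which drives anterograde transport in cilia, had differences above 0 that did not pass the threshold. *Kif3a* had 12.7 and 16.8 FPKM, a log2 difference of 0.40 (interval 0.27 to 0.53). *Kif3b* had 11.9 and 14.05 FPKM, a log2 difference of 0.24 (interval 0.14 to 0.34). *Kif3c* had 5.12 and 6.71 FPKM, a log2 difference of 0.39 (interval 0.25 to 0.53), and 0.55 with the length trend subtracted, past the threshold. It shares 2617 exonic bases with *1110002L01Rik* on the opposite strand, which had 3.79 and 3.33 FPKM.

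The kinesin-3 carriers of vesicles and endosomes ranged widely. *Kif1a*, the neuronal motor of synaptic vesicle precursors, had 0.740 and 1.68 FPKM, from about 129 and 302 fragments. It rose by 1.18 (interval 0.89 to 1.497), the largest rise among kinesins with a mean of at least 1 FPKM. It passed that filter only through the KPR_restored library, since its KPR- value was under 1 FPKM. With a pseudocount of 1 its difference was 0.62, and with the shortest coding transcript as its length it rested on about 5 and 12 fragments and the interval held 0 (-0.38 to 3.08). *Kif1b*, which carries mitochondria and synaptic vesicle precursors, had 11.1 and 11.4 FPKM, a log2 difference of 0.037. *Kif16b*, a motor of early endosomes, had 7.89 and 7.20 FPKM, a log2 difference of -0.13 (interval -0.26 to -0.0043). *Kif13a*, which moves recycling endosomes, had 4.94 and 4.68 FPKM, and *Kif13b* had 2.38 and 2.14 FPKM, with log2 differences of -0.079 and -0.16. The intervals of *Kif1b*, *Kif13a* and *Kif13b* held 0.

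*Kifc3*, a minus-end-directed kinesin-14 of epithelial cells that acts in apical transport and at adherens junctions, was the transport kinesin that fell. It had 24.8 and 17.0 FPKM and fell by 0.54 (interval -0.65 to -0.44). The 4 transport kinesins with a mean under 1 FPKM were *Kifc2*, *Kif5c*, *Kif5a* and *Kif17*, with levels from 0.0159 to 0.938 FPKM. Their counting intervals all held 0, that of *Kif17* from about 1 and 6 fragments.

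The other kinesins with a mean of at least 1 FPKM had a median log2 difference of 0.14, with 1 lower and 1 higher call among 6, too few to set against the 9.29% and 12.1% of all genes. *Kif24*, a depolymerase of the mother centriole that restrains cilium assembly, had 2.65 and 1.84 FPKM and fell by 0.53 (interval -0.79 to -0.28), from about 311 and 221 fragments. *Kif21b*, which slows microtubule growth and is best known from neurons and lymphocytes, had 2.78 and 4.34 FPKM and rose by 0.64 (interval 0.49 to 0.80). Its relative *Kif21a* had 8.22 and 8.10 FPKM, a log2 difference of -0.021. *Kif2a*, a depolymerase of spindle poles and neurites, had 19.99 and 21.5 FPKM, a log2 difference of 0.11 (interval 0.024 to 0.19). It shares 765 exonic bases with *Dimt1* on the opposite strand, which had 9.98 and 12.1 FPKM. *Kif7*, a regulator of Hedgehog signalling at the tip of the cilium, had 1.32 and 1.72 FPKM, a log2 difference of 0.37 (interval 0.027 to 0.72). The calls of *Kif24* and *Kif21b* were lost with a pseudocount of 1, where the differences were -0.36 and 0.499, and that of *Kif24* was lost with the length trend subtracted (-0.42). With its shortest coding transcript, the interval of *Kif24* held 0 (-1.43 to 0.30).

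The 8 other kinesins with a mean under 1 FPKM were *Kif12*, *Kif27*, *Kif9*, *Kif19a*, *Kif26a*, *Kif26b*, *Kif6* and *Kif2b*. *Kif2b*, a depolymerase known from testis, was listed at 0 in both libraries. *Kif12* had 0.806 and 0.218 FPKM, from about 36 and 10 fragments, with an interval of -3.06 to -0.85, the 1 low member whose interval lay on 1 side of 0. Of the 29 kinesins that passed the filter, 5 fell and 2 rose, where 21.4% of all genes were called in either direction. The level summed over all 41 kinesins was 655 and 598 FPKM, with the mitotic kinesins holding most of this difference.

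In the order of levels *Kif15* moved most, by its fall from rank 14 to 21 given above. In KPR- the order from the top was *Kif22*, *Kif23*, *Kif1c*, *Kif20a*, *Kif11*, *Kifc1*, *Kif2c* and *Kif5b*. In KPR_restored it was *Kif22*, *Kif1c*, *Kif23*, *Kifc1*, *Kif20a*, *Kif2c*, *Kif11* and *Kif5b*, so the same 8 genes led in both libraries. With 1 library per condition, neighbours in this order could not be compared beyond counting error.

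The transcripts of genes that work with the mitotic kinesins had mostly negative differences. Of these 16 partner genes, 3 fell and 0 rose, against 9.29% and 12.1% of all genes, and 13 were below 0, against 49%. The intervals of 5 held 0, and the median log2 difference was -0.23, close to the -0.20 of the motors. *Cit*, the citron kinase held at the midbody by *Kif14*, had 8.65 and 5.07 FPKM and fell by 0.77. *Cenpe*, the kinesin that links kinetochores to spindle microtubules, had 32.1 and 20.9 FPKM and fell by 0.62, a call lost with the length trend subtracted (-0.39). The third gene past the threshold was *Ect2*, the activator of RhoA recruited by centralspindlin, with 53.1 and 35.7 FPKM and a fall of 0.57. The highest values of the list were those of *Aurka* (log2 difference 0.074) and *Tpx2* (0.038), a kinase of the spindle poles and its activator, both with intervals that held 0. The 12 genes of G2 and M phase that are not kinesins had a median of -0.42, with 5 called lower and 0 higher, against 9.29% and 12.1% of all genes. *Mki67*, a proliferation marker, and *Top2a*, which untangles chromosomes, fell by 0.75 and 0.72 on the log2 scale, while *Ube2c* and *Cdc25c* had log2 differences of 0.10 and 0.050. The other genes called lower were *Bub1* (-0.67), *Cenpf* (-0.56, and -0.34 with the length trend subtracted) and *Ccna2* (-0.55). Differences of this list were below 0 in 9 genes and above 0 in 3, with *Ccnb1* at -0.085 and *Cdc20* at 0.026. In RNA of whole cultures, fewer cells in G2 and M phase and fewer transcripts in each such cell cannot be told apart.

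The partners of the transport kinesins had mostly positive differences, 10 of 15. Of 16 partner genes 15 had a mean of at least 1 FPKM, of which 0 fell and 4 rose, against 9.29% and 12.1% of all genes, with a median log2 difference of 0.21. *Klc3* and *Klc4*, light chains that tie kinesin-1 to its cargo, rose from 4.76 to 10.0 FPKM and from 6.88 to 13.9 FPKM, by 1.08 and 1.02 on the log2 scale. The most abundant light chain, *Klc1*, had 39.6 and 36.7 FPKM, a log2 difference of -0.11, like the -0.11 of the heavy chain *Kif5b*. *Arl8a*, a GTPase that couples lysosomes to kinesins, rose from 34.5 to 58.6 FPKM, and *Plekhm2*, its link to kinesin-1, rose from 6.08 to 9.89 FPKM. The lowest values were those of *Trak2*, a mitochondrial adaptor, with 10.4 and 8.43 FPKM (log2 difference -0.30), and of *Kifap3*, the subunit of kinesin-2 that is not a motor, with 12.02 and 10.9 FPKM (-0.15). *Klc1*, *Arl8a* and *Plekhm2*, and *Ect2*, *Bub1*, *Cenpf*, *Ccna2*, *Ccnb1* and *Cdc20* above, were named after their values were seen.

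Cytoplasmic dynein and dynactin, the motor of the opposite direction, had 29 of 32 genes with a mean of at least 1 FPKM, of which 1 fell and 2 rose, fewer than the 21.4% of all genes called, with a median log2 difference of 0.15. *Ndel1* and *Hook2*, which regulate dynein and link it to cargo, rose from 17.7 to 28.9 FPKM and from 17.5 to 24.98 FPKM, though *Hook2* passed the threshold by little (0.51) and lost its call with upper quartile scaling (0.48), a pseudocount of 1 (0.49) and the length trend subtracted (0.44). *Nde1*, the relative of *Ndel1* that acts on dynein in dividing cells, went from 31.9 to 22.6 FPKM and fell by 0.50, at the threshold, a call lost with a pseudocount of 0.1 or 1 (-0.499 and -0.48). *Dynll2*, a dynein light chain, had 73.2 and 57.8 FPKM, a log2 difference of -0.34. The pair *Nde1* and *Ndel1* thus went opposite ways in the same libraries.

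**Figure D5:**
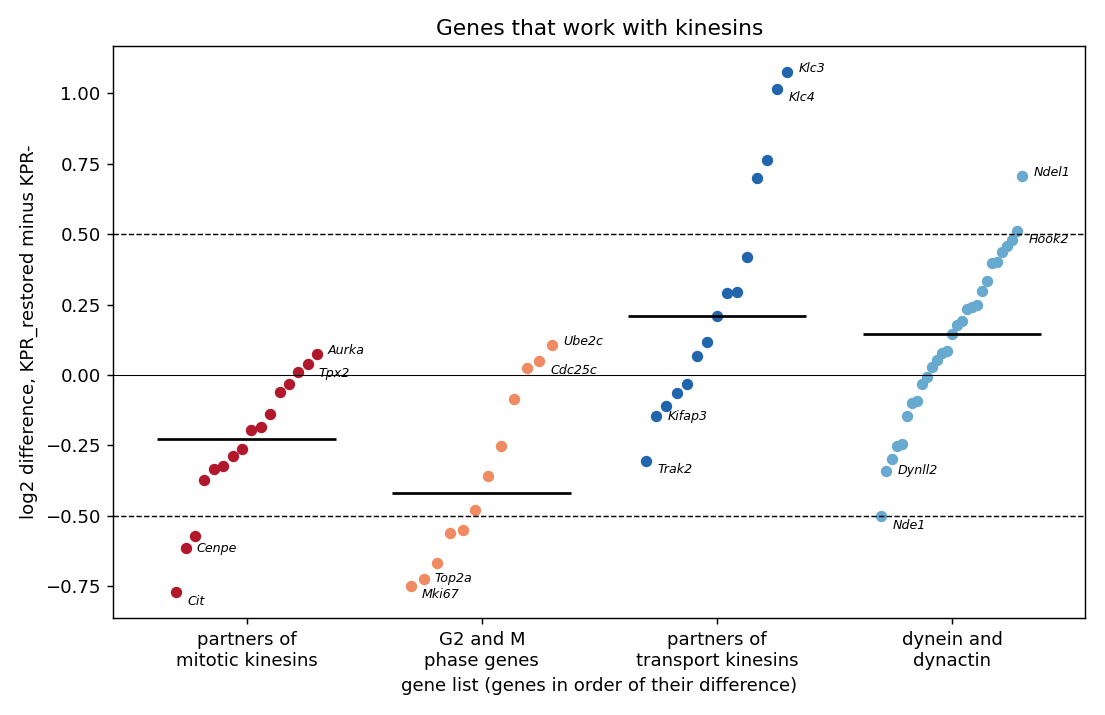
Log2 difference (KPR_restored minus KPR-, y axis) of each gene with a mean of at least 1 FPKM in 4 gene lists, in order of the difference within each list, with a bar for the list's median and dashed lines at the threshold of 0.5. The medians lie at -0.23 for partners of mitotic kinesins, -0.42 for G2 and M phase genes, 0.21 for partners of transport kinesins and 0.15 for dynein and dynactin.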

How the data were processed

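mRNA of KPR- and KPR_restored cells was sequenced as 1 library each. The authors selected poly(A) RNA, made directional libraries, sequenced paired ends, mapped the reads with TopHat to mm10 (submitters' processing notes) and deposited FPKM values estimated with Cufflinks, 1 per gene and library. Tool versions, the annotation and whether strand was used in counting are not given in the sources used here. The paper's methods also name EdgeR, with an FPKM and geometric normalization, for read counts, which were not used here. Whether the deposited values carry that normalization is not stated.

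Differences were computed as log2(FPKM + 0.005) in KPR_restored minus KPR-, a scale that understates the change of genes near the pseudocount. Transcript lengths came from GENCODE M21 (GRCm38), with the longest transcript that has a RefSeq counterpart, and 22148 of 23183 symbols matched directly and 656 through a synonym. Depth was fitted to the steps that whole fragments make in low FPKM values, with a fragment length of 210 bases. Estimates for 77.9% (KPR-) and 80.5% (KPR_restored) of 570 and 584 low genes came within 0.1 of whole fragments, against 20% for evenly spread values. The depths were fitted to these same genes, so part of this excess was built in and it is no separate check of the depths. Intervals are exact 95% Clopper-Pearson limits of the ratio of estimated fragments. They cover counting error only, and PCR copies are not independent molecules. Estimated fragments summed over all genes to 2.37e+07 in each library, above the fitted depths. The fragment estimates and depths are therefore not exact, and some intervals may be too narrow. The procedure was also run on simulated libraries. The outcome of that run is not given here, so that run is no check of the depths or intervals above. For each gene the RefSeq start nearest to a GENCODE M21 transcript start was used for promoter letters. No promoter was given for *Kif20a*, *Kif5b*, *Kif13b*, *Kif19a*, *Kif21b*, *Kif5a*, *Kifc2* and *Kifc3*.

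Members and lists were chosen with earlier results of these data known. Named were all mitotic kinesins, other kinesins with a mean of at least 1 FPKM, and the 2 largest rises and falls of each partner list. Where a list had fewer than 2 members past the threshold, its 2 highest or lowest values were given. Alternatives were other pseudocounts, filters, scalings, a threshold of 1, subtraction of the length trend in 20 bins, other transcript lengths and removal of *Kifc1*. Calculations ran in Python 3.11.15 with pandas 2.3.3, numpy 2.4.6 and scipy 1.17.1, and plots were made with matplotlib 3.10.9.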

Additional observations from a re-analysis of the deposited data

How the results depend on the processing

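No paired analysis was possible because there is 1 library per condition. The median of the mitotic kinesins stayed between -0.23 and -0.19 and below that of the transport kinesins, by 0.12 to 0.28, under each scaling, filter and pseudocount, with the length trend removed and, for the mitotic median, without *Kifc1* (-0.21). Scalings moved all differences by at most 0.034 downwards. With a threshold of 1, calls were 1 for mitotic, 1 for transport and 0 for other kinesins, 0 for mitotic partners, 2 for transport partners, 0 for dynein and dynactin, 0 for G2 and M phase genes, and 155 lower and 325 higher genes in all, by construction fewer. With a mean of at least 5 FPKM, calls were 1 for transport and 0 for other kinesins, and 641 lower and 872 higher genes in all. With a mean of at least 0.1 FPKM they were 5 for dynein and dynactin, and 1776 lower and 2111 higher genes in all. With no filter they were 5 for other kinesins (median -0.063), 5 for dynein and dynactin, and 3002 lower and 3193 higher genes in all, since members with few fragments entered. With a pseudocount of 1 they were 0 for other kinesins and 1 for dynein and dynactin. With the length trend removed, the transport median turned from -0.079 to 0.081 (and to 0.037 with a mean of at least 0.1 FPKM or no filter), 1 other kinesin was called and the G2 and M median was -0.34. The same step turned *Kif21a* (0.087), *Kif1c* (0.076) and *Kif13a* (0.081) above 0. With upper quartile scaling *Kif20b* passed the threshold (-0.51). Intervals excluded 0 for 23 of 29 kinesins, for 23 with the shortest RefSeq transcript, an alternative added after the data were seen, as were both other promoter choices, and for 16 with the shortest coding transcript, where those of *Kif22*, *Kifc1*, *Kif24*, *Kif2a*, *Kif16b*, *Kif1c* and *Kif1a* held 0 as well. Depth limits the kinesins with a mean under 1 FPKM, of which *Kif5c* alone reached 100 estimated fragments in a library.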
